A study of Mus musculus with 15 samples.

Results

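The genes for integrin chains and laminin chains, chosen with earlier results of these data known, were examined in aortic valve leaflets of mice. Rows of the expression table were taken by gene name alone, with no use of their values, as those named Itga, Itgb, Lama, Lamb or Lamc followed by a chain number or letter. This gave 35 of 18073 genes, of which 25 encode integrin chains (17 alpha and 8 beta) and 10 encode laminin chains (5 alpha, 2 beta and 3 gamma). The laminin beta-1 gene stands in the table under its older name Lamb1-1, which the naming pattern does not match, and its values are given beside the members.

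The mice were C57BL/6 and 2 months old, and each library came from the 3 leaflets of 1 mouse. N1het/TercG2 mice (4 libraries) were heterozygous for Notch1 and were generation 2 Terc-/- animals with shortened telomeres, since Terc encodes the RNA template of telomerase. N1WT/TercG2 mice (3 libraries) were Notch1 wild type in the same generation 2 Terc-/- setting. N1het/TercWT mice (4 libraries) were Notch1 heterozygous with intact Terc and long telomeres, and N1WT/TercWT mice (4 libraries) were wild type for both genes. Where the Notch1 allele is altered is not stated in the labels. The title asks whether telomere length alters the outcome of Notch1 haploinsufficiency.

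Integrins are cell surface receptors made of an alpha and a beta chain that tie the cytoskeleton to the matrix, to other cells and to plasma proteins. Laminins are trimers of an alpha, a beta and a gamma chain and form the sheet of the basement membrane, where several integrins bind them. In a valve leaflet a basement membrane lies under the endothelium, and interstitial cells sit in a matrix of collagen, proteoglycan and elastin. Platelets and leukocytes carry integrins of their own.

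Each gene has 1 FPKM value per group (a fragment count scaled by transcript length and library total), so the libraries had been combined. The spread between mice and the depth are unknown, and values are printed without errors. For 5 pairs of groups the authors' deposited table also holds calls of different genes, which cover 285 of the 18073 genes in all. "Fell" and "rose" are used only of such calls. Since calls are this rare, 0 calls do not set a small group of genes apart from other genes. Log2 folds are differences of log2(FPKM + 1), and a 2-fold limit (1 on that scale) is used to count uncalled differences. Over all genes the log2 fold had a median of -0.16 for N1het/TercG2 over N1WT/TercWT, 0.06 for N1het/TercG2 over N1WT/TercG2, -0.24 for N1het/TercG2 over N1het/TercWT, -0.23 for N1WT/TercG2 over N1WT/TercWT and 0.09 for N1het/TercWT over N1WT/TercWT. Median scaling sets these to 0, and scaling on the sum without mitochondrially encoded genes moves them to -0.50, 0.07, -0.63, -0.59 and 0.14 in the same order. Terc was listed at 0 in both TercG2 groups, against 4.52 FPKM in N1het/TercWT and 1.42 FPKM in N1WT/TercWT valves. Notch1 stood at 23.3 FPKM in N1het/TercG2, 16.6 in N1WT/TercG2, 25.1 in N1het/TercWT and 39.1 FPKM in N1WT/TercWT valves, without a call in any comparison. The pair labelled TercG2 thus has more Notch1 RNA in the heterozygous group. RNA from outside the altered part would not check the genotype, and groups are named here as labelled. Summed markers of valve interstitial cells lay between 4387 and 7198 FPKM in the 4 groups, with none of the 10 listed at 0. Those of heart muscle lay between 3539 and 5738 FPKM. The interstitial sum is weighted to Dcn, at 4698 FPKM in N1WT/TercG2 valves. All 10 interstitial markers were lower in N1het/TercWT than in N1WT/TercWT valves (43.6% of all genes), with a median of -0.66 relative to all genes. Single markers varied more. Tcf21, an interstitial marker, stood at 20.1 FPKM in N1het/TercG2, 1.01 in N1WT/TercG2, 12.3 in N1het/TercWT and 26.2 FPKM in N1WT/TercWT valves. In that order the heart muscle markers Myl7 and Nppa stood at 129, 47.1, 13.0 and 216 FPKM and at 413, 46.8, 43.4 and 352 FPKM. These were the only markers of both lists with a call. In bulk tissue, fewer cells of a type and less RNA per cell cannot be told apart.

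Of the 35 members, 23 reached 10 FPKM in at least 1 group and 14 did so in all 4, while 3 stayed under 1 FPKM throughout. Itgb1, the beta chain shared by most matrix-binding integrins, was the most abundant member in every group, with 179.7 FPKM in N1het/TercG2, 151 in N1WT/TercG2, 127 in N1het/TercWT and 133 FPKM in N1WT/TercWT valves. It made up between 47.6% (N1WT/TercWT) and 62.6% (N1het/TercG2) of the summed FPKM of the 8 beta chains. The chain in second place differed between groups. It was Itgb5 in N1het/TercG2 (56.1 FPKM), Itgb3 in N1WT/TercG2 (45.4 FPKM), Itgb2 in N1het/TercWT (34.6 FPKM) and Itgb3 again in N1WT/TercWT valves (54.7 FPKM). Among alpha chains Itga9 was first in N1het/TercG2 (48.0 FPKM), N1het/TercWT (35.8 FPKM) and N1WT/TercWT valves (51.4 FPKM). In N1WT/TercG2 valves it was second at 28.3 FPKM, behind Itga6 at 42.6 FPKM. Without an error, neighbours in these orders cannot be called different, such as Itga9 and Itga5 at 51.4 and 50.9 FPKM in N1WT/TercWT valves.

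**Figure D1:**
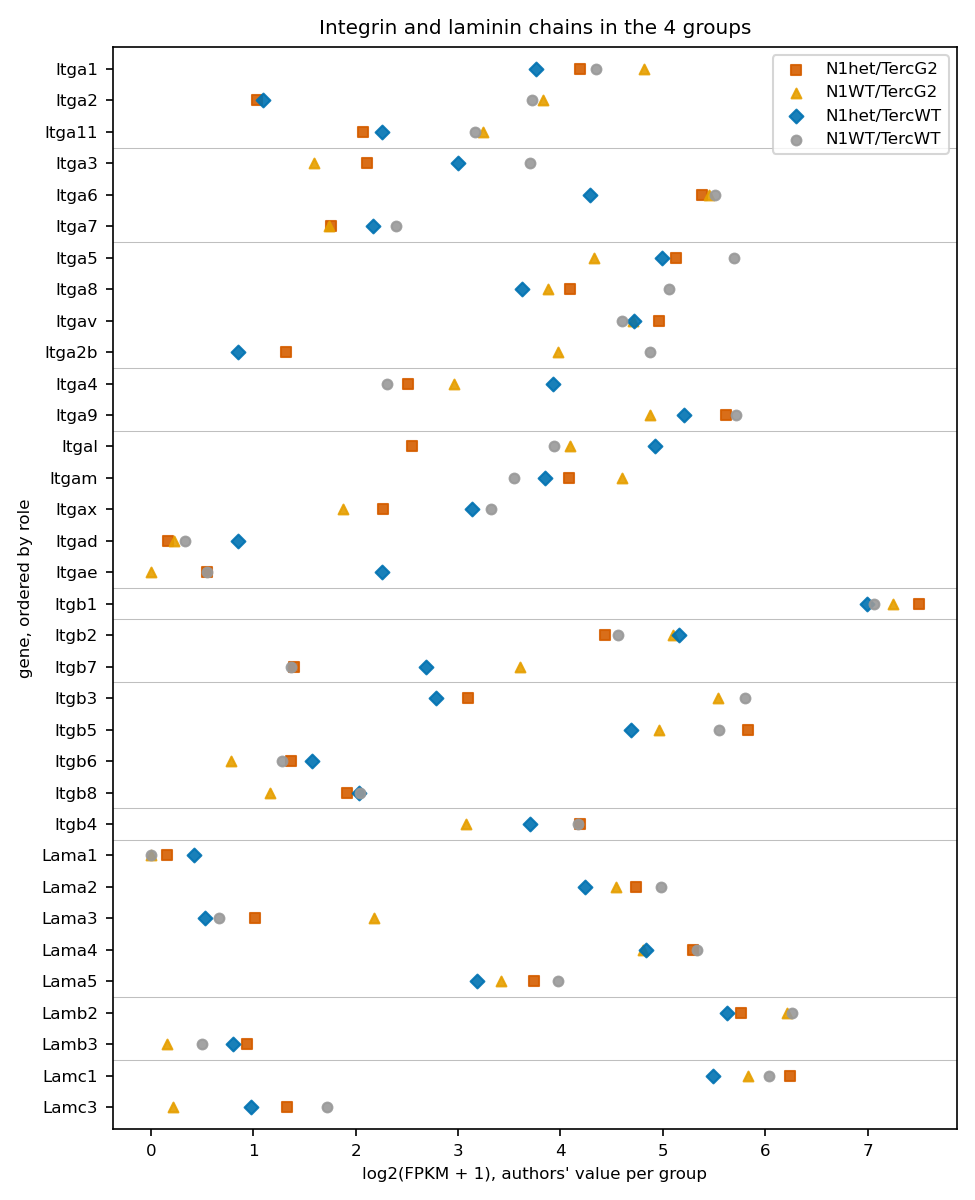
The authors' value of the 35 genes, with 1 left out, in each of the 4 groups, as log2(FPKM + 1) on the horizontal axis, with genes down the page by role and thin lines between roles. Itga2, Itga2b and Itgb3 show both Notch1 heterozygous groups (squares and diamonds) far left of both wild type groups, while Itgb1 is the rightmost gene in all 4.

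The chains called different were the platelet integrins, and they were low in both Notch1 heterozygous groups. Itga2b encodes the alpha-IIb chain, which pairs with the beta-3 chain from Itgb3 to form the fibrinogen receptor of platelets. Itga2 encodes the alpha chain of a collagen receptor that platelets carry together with Itgb1. In the authors' deposited table these 3 genes fell in N1het/TercWT relative to N1WT/TercWT valves, 8.57% of the members, where 0.271% of all genes were called lower. Itga2b fell in N1het/TercG2 relative to N1WT/TercG2 valves (0.36% of all genes called lower), and Itga2b and Itga2 fell in N1het/TercG2 relative to N1WT/TercWT valves (0.31% of all genes called lower).

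Itga2b stood at 1.49 FPKM in N1het/TercG2, 14.7 in N1WT/TercG2, 0.803 in N1het/TercWT and 28.4 FPKM in N1WT/TercWT valves. Its FPKM was 35.3-fold lower in heterozygous than in wild type valves with long telomeres (log2 fold -4.03) and 9.85-fold lower with short telomeres (log2 fold -2.66). Itga2 stood at 1.05 FPKM in N1het/TercG2, 13.2 in N1WT/TercG2, 1.14 in N1het/TercWT and 12.2 FPKM in N1WT/TercWT valves. The lowest wild type value of both genes was thus several times the highest heterozygous value. For Itga2 the FPKM was 12.6-fold lower with short telomeres (log2 fold -2.79, not called) and 10.7-fold lower with long telomeres (log2 fold -2.63, called). Itgb3 stood at 7.58 FPKM in N1het/TercG2, 45.4 in N1WT/TercG2, 5.90 in N1het/TercWT and 54.7 FPKM in N1WT/TercWT valves. Its heterozygous values were 5.99-fold below wild type with short telomeres (log2 fold -2.44, not called) and 9.27-fold below with long telomeres (log2 fold -3.01, called). These were the 3 members past the 2-fold limit on the low side in both telomere settings, which share no library, and 1.41% of all genes were past it in both.

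Between TercG2 and TercWT valves of 1 Notch1 genotype the same genes differed less. The log2 fold of Itga2b was 0.47 for N1het/TercG2 over N1het/TercWT and -0.90 for N1WT/TercG2 over N1WT/TercWT. For Itga2 the log2 folds were -0.06 and 0.11 in the same comparisons, and for Itgb3 they were 0.31 and -0.26. None of these was called, and none passed 2-fold as reported, while Itga2b came to -1.29 in N1WT/TercG2 over N1WT/TercWT without mitochondrially encoded genes. The values for Itga2 and Itgb3 are near 0, and some turn sign with the scaling: in N1het/TercG2 over N1het/TercWT Itga2 came to 0.18 with median scaling and Itgb3 to -0.05 without mitochondrially encoded genes, and in N1WT/TercG2 over N1WT/TercWT Itga2 came to -0.25 without those genes.

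Other markers of platelets moved with these chains. A list of 12 platelet genes without integrins was chosen with earlier results of these data known. All 12 were past 2-fold lower in heterozygous valves in both telomere settings. The authors' deposited table calls 8 of them in N1het/TercG2 against N1WT/TercG2 and 12 in N1het/TercWT against N1WT/TercWT valves. In N1het/TercG2 relative to N1het/TercWT valves 11 of the 12 were higher, 7 past 2-fold, and in the authors' deposited table Gp9 and Ppbp rose. Their summed FPKM was 420 in N1het/TercG2, 2183 in N1WT/TercG2, 126 in N1het/TercWT and 3368 in N1WT/TercWT valves, and none of the 12 was listed at 0 in any group. The part of platelets in the result was not tested. Other chains that bind the same partners or ligands differed less between the Notch1 genotypes. Itgav, the alpha chain that also pairs with the beta-3 chain, stood at 30.3 FPKM in N1het/TercG2, 25.2 in N1WT/TercG2, 25.3 in N1het/TercWT and 23.3 FPKM in N1WT/TercWT valves. Itga1, which encodes the alpha-1 chain of another collagen receptor and lies next to Itga2 in RefSeq's gene order, stood at 17.3, 27.2, 12.5 and 19.4 FPKM in the same order of groups. Its heterozygous values also lay below both wild type values, with log2 folds for the Notch1 genotypes of -0.62 with short and -0.59 with long telomeres, against -2.79 and -2.63 for Itga2.

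**Figure D2:**
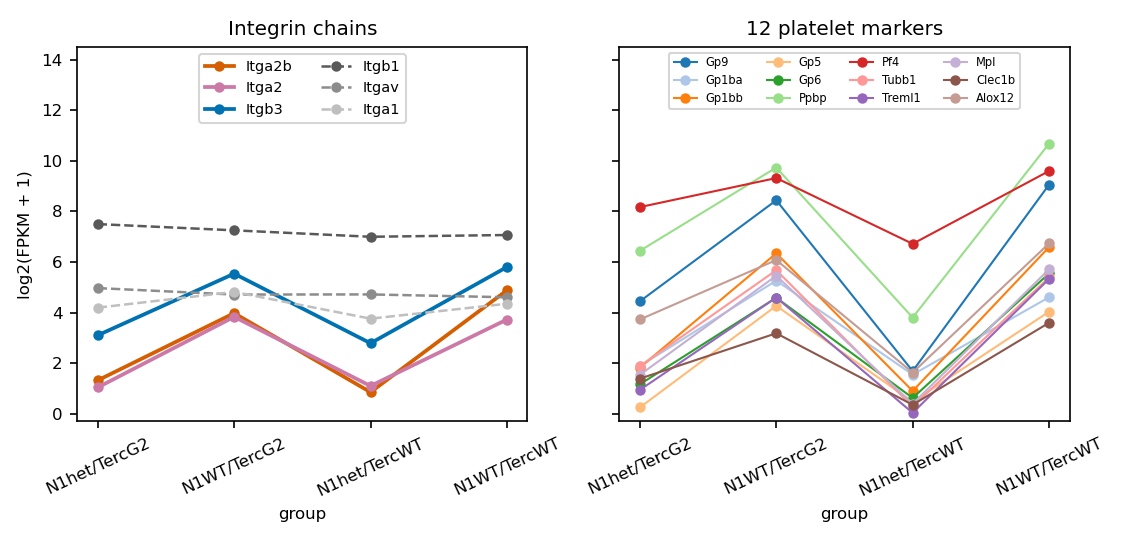
Log2(FPKM + 1) by group for 6 integrin chains (left) and for 12 platelet markers (right), where lines only join the values of a gene. Itga2b, Itga2 and Itgb3 share the low values of the platelet markers in N1het/TercG2 and N1het/TercWT valves, while Itgb1, Itgav and Itga1 (dashed) vary less.

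The promoters of Itga2b and Itga2 are shown because these 2 chains of different receptors were low in the same groups. The sequences are the 250 bases before the RefSeq start of each gene in build GRCm38.p6, both on the minus strand, written 5′ to 3′. RefSeq's table had a promoter for 21 of the 35 members. Itgb3, which was low in the same groups, was not among them and could not be shown. Capitals mark the letters TGGGAA or their reverse complement TTCCCA, the core bound by CSL, the DNA-binding partner of the Notch intracellular domain.
Itga2b, chr11:102469884-102470133: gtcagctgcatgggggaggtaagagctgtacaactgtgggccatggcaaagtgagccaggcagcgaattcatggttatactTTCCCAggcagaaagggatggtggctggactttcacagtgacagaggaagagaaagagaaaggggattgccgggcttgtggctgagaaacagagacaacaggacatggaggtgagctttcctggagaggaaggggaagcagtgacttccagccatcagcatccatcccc
Itga2, chr13:114932101-114932350: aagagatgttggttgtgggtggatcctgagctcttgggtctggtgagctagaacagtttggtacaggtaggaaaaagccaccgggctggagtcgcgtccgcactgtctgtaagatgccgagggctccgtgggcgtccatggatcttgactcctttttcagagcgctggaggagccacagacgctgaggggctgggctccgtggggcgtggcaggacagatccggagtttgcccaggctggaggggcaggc
Both strands were searched. The CSL letters occurred once in the Itga2b window, on the opposite strand at 169 to 164 bases before the start, and not in the Itga2 window, and 21.6% of 32851 promoter windows of this length held them. AGATAA, a motif of GATA factors, is in neither window (9.99% of all windows hold it), and CCGGAA, a motif of ETS factors, is in neither (12% of all windows). The shorter GATA is in neither window (53.6% of all windows), and GGAA is in both (93.4% of all windows, counting every overlap with the CSL letters). A match describes the letters and not a bound site.

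The other integrins of matrix and basement membrane held 0 calls, where calls cover 285 of all 18073 genes. Itga3, Itga5, Itga7 and Itga8 were highest in N1WT/TercWT valves, as were Itga6 and Itga9 except with median scaling. With that scaling N1WT/TercG2 was the highest group for Itga6, at a log2 fold of 0.17 over N1WT/TercWT, with N1het/TercG2 at 0.03. For Itga9 it was N1het/TercG2, at 0.06 over N1WT/TercWT. Itgb1 was highest in N1het/TercG2 valves, as were Itgav, Itgb4 and Itgb5 except after scaling without mitochondrially encoded genes, where Itgav came to -0.15 over N1het/TercWT and Itgb4 and Itgb5 came to -0.35 and -0.08 over N1WT/TercWT. Itga11, the alpha chain of a fibroblast receptor for fibrillar collagen, stood at 3.19 FPKM in N1het/TercG2, 8.45 in N1WT/TercG2, 3.79 in N1het/TercWT and 7.999 FPKM in N1WT/TercWT valves. Its heterozygous values were both below its wild type values, with log2 folds of -1.17 with short and -0.91 with long telomeres, at under 10 FPKM. Itga10 is not analysed here.

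Of the laminin-binding alpha chains, Itga6 was low in 1 group. It stood at 40.7 FPKM in N1het/TercG2, 42.6 in N1WT/TercG2, 18.6 in N1het/TercWT and 44.6 FPKM in N1WT/TercWT valves. The log2 fold was 1.09 for N1het/TercG2 over N1het/TercWT and -1.22 for N1het/TercWT over N1WT/TercWT, without a call. Scaling without mitochondrially encoded genes brought the value over N1het/TercWT to 0.71. Itgb4, which pairs with the alpha-6 chain and anchors epithelia at hemidesmosomes, stood at 17.3 FPKM in N1het/TercG2, 7.45 in N1WT/TercG2, 12.01 in N1het/TercWT and 17.1 FPKM in N1WT/TercWT valves. Its lowest group was N1WT/TercG2 and not the lowest group of its partner. Itga3, the alpha chain of a receptor for laminins of epithelia and vessels, stood at 3.32 FPKM in N1het/TercG2, 2.01 in N1WT/TercG2, 6.997 in N1het/TercWT and 12.03 FPKM in N1WT/TercWT valves. It was lower in the TercG2 groups, with log2 folds of -0.89 for N1het/TercG2 over N1het/TercWT (-1.35 without mitochondrially encoded genes) and -2.11 for N1WT/TercG2 over N1WT/TercWT. Itga7, the laminin receptor chain of muscle, lay between 2.35 and 4.24 FPKM in the 4 groups.

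Besides Itga2b, the alpha chains that bind fibronectin and related ligands at the tripeptide arginine-glycine-aspartate were Itga5, Itga8 and Itgav. Itga5, the fibronectin receptor chain, stood at 33.9 FPKM in N1het/TercG2, 19.0 in N1WT/TercG2, 30.9 in N1het/TercWT and 50.9 FPKM in N1WT/TercWT valves. Itga8, a chain of mesenchymal and smooth muscle cells that binds nephronectin, stood at 16.1 FPKM in N1het/TercG2, 13.7 in N1WT/TercG2, 11.3 in N1het/TercWT and 32.3 FPKM in N1WT/TercWT valves. N1WT/TercWT valves were thus the highest group for both, and for Itga8 the other groups were close to each other. The log2 folds of Itga8 over N1WT/TercWT were -0.96 in N1het/TercG2 (-1.35 without mitochondrially encoded genes), -1.18 in N1WT/TercG2 (-0.95 with median scaling) and -1.44 in N1het/TercWT valves. Smooth muscle markers were highest in the same group. The summed FPKM of 10 such markers was 519 in N1het/TercG2, 652 in N1WT/TercG2, 298 in N1het/TercWT and 1314 in N1WT/TercWT valves, with none listed at 0. By the authors' calls 5 of them (Lmod1, Cnn1, Myl9, Myh11 and Mylk) fell in N1het/TercWT relative to N1WT/TercWT valves. The first 3 also fell in N1het/TercG2 relative to N1WT/TercWT valves. The part of smooth muscle in the Itga8 values was not tested.

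Itga9, a receptor chain for tenascin-C and VCAM-1, had the same order of groups as Itga5. Its values were 48.0 FPKM in N1het/TercG2, 28.3 in N1WT/TercG2, 35.8 in N1het/TercWT and 51.4 FPKM in N1WT/TercWT valves. Itgb5, a partner of the alpha-v chain in binding vitronectin, stood at 56.1 FPKM in N1het/TercG2, 30.3 in N1WT/TercG2, 24.8 in N1het/TercWT and 45.8 FPKM in N1WT/TercWT valves. N1het/TercG2 valves had its highest value, at a log2 fold of 1.14 over N1het/TercWT (0.76 after scaling without mitochondrially encoded genes) and 0.29 over N1WT/TercWT, where the sign turned with that scaling (-0.08). The other alpha-v partners, Itgb6 and Itgb8, lay between 0.724 and 3.12 FPKM in the 4 groups.

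Laminin genes had 0 calls in the 5 comparisons, where calls cover 285 of all 18073 genes. As reported most of their abundant chains were lowest in N1het/TercWT valves, which depended on the scaling. Of the 10 members, 5 reached 10 FPKM in at least 1 group. Of these 5, 4 had their lowest value in N1het/TercWT valves, the lowest group for 11.2% of all genes. Lamc1, the gamma-1 chain found in most laminins, stood at 74.9 FPKM in N1het/TercG2, 55.8 in N1WT/TercG2, 44.0 in N1het/TercWT and 64.9 FPKM in N1WT/TercWT valves. Lama4, an alpha chain of vascular basement membranes, stood at 38.3, 27.0, 27.6 and 39.3 FPKM in the same order of groups, and was the 1 abundant chain with its lowest value in N1WT/TercG2. Lama2, the alpha chain of muscle laminin, stood at 25.6, 22.3, 17.9 and 30.6 FPKM in that order. All 5 abundant laminin genes were higher in N1het/TercG2 than in N1het/TercWT, and all 5 were lower in N1het/TercWT than in N1WT/TercWT, none by 2-fold. In N1het/TercG2 over N1het/TercWT the log2 fold of Lamb2 turned to -0.27 after scaling without mitochondrially encoded genes, against 0.14 as reported. With that scaling N1WT/TercG2 stood below N1het/TercWT for Lamc1, Lama2 and Lama5. N1het/TercWT was then no longer the lowest group for any of these chains.

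Lama5, another alpha chain of endothelial basement membranes, stood at 12.4 FPKM in N1het/TercG2, 9.68 in N1WT/TercG2, 8.08 in N1het/TercWT and 14.8 FPKM in N1WT/TercWT valves. Lamb2, the beta-2 chain of vessel and neuromuscular laminins, was split by Notch1 genotype, with 53.3 FPKM in N1het/TercG2, 72.9 in N1WT/TercG2, 48.3 in N1het/TercWT and 75.7 FPKM in N1WT/TercWT valves. Its log2 folds were -0.45 with short and -0.64 with long telomeres. Lamb1, listed as Lamb1-1, stood at 15.2, 10.4, 7.72 and 10.7 FPKM in the same order of groups, below Lamb2 in each. The order of the alpha chains was Lama4, Lama2 and Lama5 in all 4 groups, with Lama4 at 43.2% to 50.7% of the summed FPKM of the alpha chains. Lamc1 held 95.7% to 97.7% of the summed FPKM of the gamma chains.

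The chains of epithelial laminin were scarce. Lama3 stood at 1.03 FPKM in N1het/TercG2, 3.54 in N1WT/TercG2, 0.438 in N1het/TercWT and 0.589 FPKM in N1WT/TercWT valves, so that N1WT/TercG2 was its high group. Its partner chain Lamb3 lay between 0.112 and 0.913 FPKM in the 4 groups. Lamc3 lay at 0.163 FPKM in N1WT/TercG2 and between 0.967 and 2.29 FPKM in the other groups. Lama1, an embryonic chain, was listed at 0 in N1WT/TercG2 and N1WT/TercWT valves and at 0.112 FPKM in N1het/TercG2 and 0.336 FPKM in N1het/TercWT valves. Lamb4 is not analysed here.

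**Figure D3:**
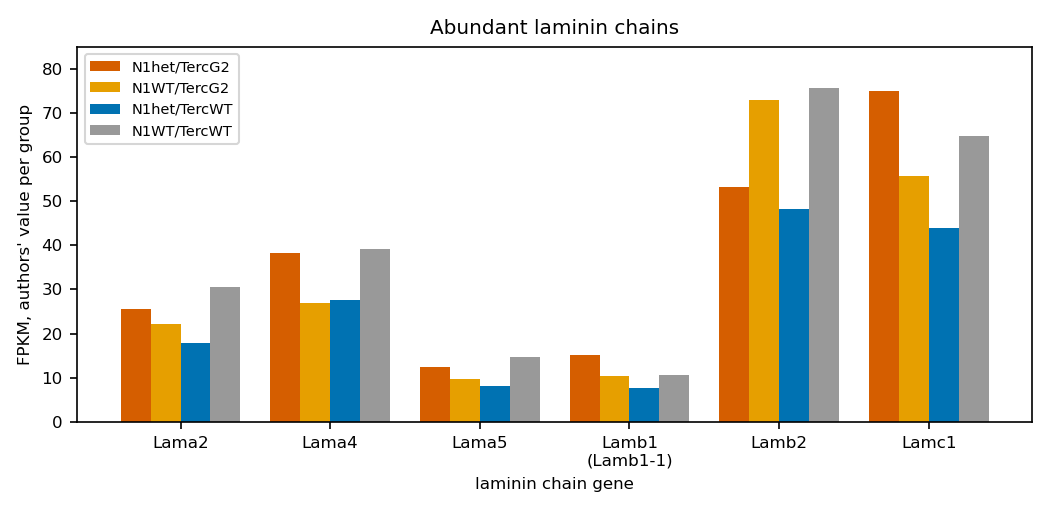
FPKM of the 5 laminin genes that reached 10 FPKM, and of Lamb1 (listed as Lamb1-1), as bars for the 4 groups on an axis that starts at 0. N1het/TercWT has the shortest bar for Lama2, Lama5, Lamb1, Lamb2 and Lamc1, and Lamb2 is tallest in both Notch1 wild type groups.

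Other genes of the basement membrane, on a list of 16 without laminins, also held 0 calls (285 of all 18073 genes called). In N1het/TercWT relative to N1WT/TercWT valves 14 of 16 were lower, 5 of them past 2-fold, with a median of -0.66 relative to all genes. In N1het/TercG2 relative to N1het/TercWT valves 14 of 16 were higher, 2 past 2-fold, with a median of 0.86 relative to all genes. The 10 laminin members had medians of -0.61 and 0.72 relative to all genes in these comparisons, which share the N1het/TercWT libraries. In N1het/TercWT over N1WT/TercWT the markers of interstitial cells, smooth muscle and endothelium had medians of -0.66, -2.61 and -0.41 relative to all genes. Those of heart muscle had a median of 0.22. In N1het/TercG2 over N1het/TercWT these lists had medians of 0.47, 0.85, 1.07 and 0.63, in the same order. Their part in the laminin values was not tested. The basement membrane list genes with the largest log2 folds in N1het/TercWT over N1WT/TercWT were Col4a6 and Nid2. Col4a6, a collagen IV chain, stood at 3.004 FPKM in N1het/TercWT, against 9.27 FPKM in N1WT/TercWT valves. Nid2, which links laminin to collagen IV, stood at 6.37 FPKM in N1het/TercWT, against 15.9 FPKM in N1WT/TercWT valves. Smoc2, a calcium-binding matrix protein, and Nid2 had the largest in N1het/TercG2 over N1het/TercWT, at 1.38 and 1.27. Of 9 non-integrin laminin receptors 0 were called in any comparison. The largest log2 fold of N1het/TercWT over N1WT/TercWT was -0.90 for Bcam, a receptor for laminin alpha-5 (33.6 FPKM in N1het/TercWT, against 63.6 FPKM in N1WT/TercWT valves). Dag1, which encodes dystroglycan and was named after its values were seen, lay between 83.2 and 103 FPKM in the 4 groups.

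The integrins of leukocytes held 0 calls, where calls cover 285 of all 18073 genes. Several were highest where markers of leukocytes were highest. Itgal encodes the alpha chain of LFA-1, which T cells use to bind ICAM-1. It stood at 4.87 FPKM in N1het/TercG2, 16.1 in N1WT/TercG2, 29.3 in N1het/TercWT and 14.3 FPKM in N1WT/TercWT valves. Itga4, the alpha chain of the lymphocyte receptor for VCAM-1, stood at 4.69, 6.80, 14.2 and 3.94 FPKM in the same order of groups. Both were highest in N1het/TercWT valves, as was Itgae at 3.77 FPKM, the partner of Itgb7 on T cells in epithelia. Itgae was listed at 0 in N1WT/TercG2 and stood at 0.466 FPKM in both other groups.

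Itgal had a log2 fold of -2.37 in N1het/TercG2 over N1het/TercWT and 0.98 in N1het/TercWT over N1WT/TercWT valves. For Itga4 these log2 folds were -1.42 and 1.62, and both comparisons use the N1het/TercWT libraries. T cell markers had the same high group. The summed FPKM of 12 T cell markers without integrins was 29.6 in N1het/TercG2, 275 in N1WT/TercG2, 1858 in N1het/TercWT and 170 in N1WT/TercWT valves, and none of the 12 was listed at 0. In the authors' deposited table, 11 of them fell in N1het/TercG2 relative to N1het/TercWT and 9 rose in N1het/TercWT relative to N1WT/TercWT valves, among them Dntt and Rag1, genes of developing lymphocytes. Their part in the values of Itgal and Itga4 was not tested.

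Itgam, the alpha chain of Mac-1 on neutrophils and monocytes, stood at 15.9 FPKM in N1het/TercG2, 23.2 in N1WT/TercG2, 13.4 in N1het/TercWT and 10.7 FPKM in N1WT/TercWT valves. Itgb7 stood at 1.63, 11.1, 5.43 and 1.59 FPKM in the same order of groups. N1WT/TercG2 valves were the highest group for both, at log2 folds over N1WT/TercWT of 1.06 for Itgam (0.73 after scaling without mitochondrially encoded genes) and 2.23 for Itgb7. Of 10 neutrophil markers without integrins, all 10 were past 2-fold higher in that comparison, and 7 rose by the calls in the authors' deposited table. Their summed FPKM was 186 in N1het/TercG2, 1792 in N1WT/TercG2, 47.9 in N1het/TercWT and 17.3 in N1WT/TercWT valves, with Ngp, Ly6g and Camp listed at 0 in N1WT/TercWT. Outside the shared high group Itgb7 did not follow these markers, being higher in N1het/TercWT (5.43 FPKM) than in N1het/TercG2 valves (1.63 FPKM). Their part was not tested.

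Itgb2, the beta chain of LFA-1 and Mac-1, was high in N1het/TercWT and N1WT/TercG2 valves, with 20.6 FPKM in N1het/TercG2, 33.3 in N1WT/TercG2, 34.6 in N1het/TercWT and 22.7 FPKM in N1WT/TercWT valves. Itgax, a chain of dendritic cells and macrophages, followed none of the leukocyte marker lists, with 3.80, 2.66, 7.76 and 8.98 FPKM in that order of groups. Summed macrophage markers (10 genes) were highest in N1het/TercG2 valves at 2895 FPKM, against 1436 in N1WT/TercG2, 1599 in N1het/TercWT and 1093 FPKM in N1WT/TercWT valves. Itgad, a neighbour of Itgax and Itgam and similar to them in sequence, stayed at or under 0.801 FPKM, and reads shared between these genes may have been split.

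**Figure D4:**
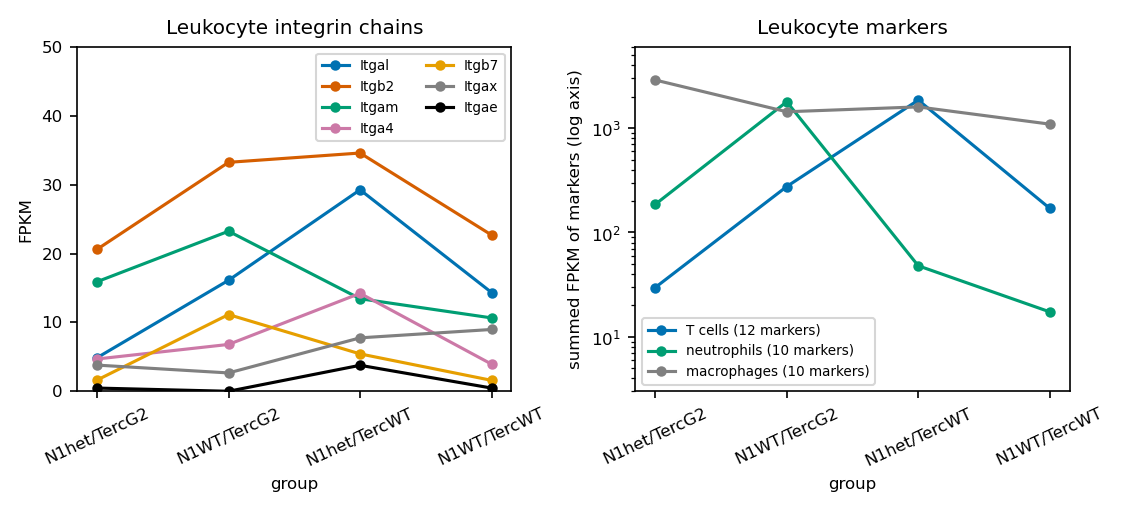
FPKM of 7 integrin chains of leukocytes by group (left, linear axis) and summed FPKM of T cell, neutrophil and macrophage markers (right, log axis), where lines only join the values of a gene or list. Itgal, Itga4 and Itgae peak with T cell markers in N1het/TercWT valves. Itgam, Itgb7 and the neutrophil markers are highest in N1WT/TercG2 valves, but Itgb7 does not follow those markers in the other groups.

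Counted over all 35 members, the Notch1 comparison with long telomeres leaned to lower values. In N1het/TercWT relative to N1WT/TercWT valves 23 members were lower and 12 higher, where 43.6% of all genes were lower and 55.9% higher. Past 2-fold, 5 members were lower (Itga2b, Itga2, Itgb3, Itga8 and Itga6) beside 7.53% of all genes, and 3 were higher (Itgae, Itgb7 and Itga4) beside 10.9%. With short telomeres, N1het/TercG2 relative to N1WT/TercG2, 14 members were lower and 21 higher, where 42.6% of all genes were lower and 53.5% higher. Past 2-fold, 7 were lower (Itga2b, Itga2, Itgb3, Itgb7, Itgal, Itga11 and Lama3) beside 10.8% of all genes, and 2 were higher (Itgb4 and Lamc3) beside 12.5%. Median folds of the members were -0.47 with long and 0.22 with short telomeres, or -0.57 and 0.16 relative to all genes.

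For short against long telomeres the members held 0 calls, where 0.432% of all genes were called in N1het and 0.686% in N1WT valves. In N1het/TercG2 relative to N1het/TercWT valves 4 members were past 2-fold lower (Itgae, Itgb7, Itga4 and Itgal) beside 16.8% of all genes, and 2 were higher (Itgb5 and Itga6) beside 4.71%. Without mitochondrially encoded genes these counts were 8 lower and 0 higher. Of all 35, 21 were higher (34.3% of all genes) and 14 lower (64.9% of all genes), against 25 and 10 with median scaling and 15 and 20 after scaling without mitochondrially encoded genes. In N1WT/TercG2 relative to N1WT/TercWT valves 6 members were past 2-fold lower (Itga3, Itgb4, Itga5, Itga8, Lamc3 and Itgax) beside 20.9% of all genes, and 3 were higher (Itgb7, Itgam and Lama3) beside 8.9%. Without mitochondrially encoded genes 11 were lower. The reported shares are 17.1% and 8.57% of the members, near the background. In both of these comparisons at once, 0 members were past 2-fold lower (5.78% of all genes) and 0 higher (1.03%).

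In N1het/TercG2 relative to N1WT/TercWT valves, 7 members were past 2-fold lower (Itga2b, Itga2, Itgb3, Itga3, Itgax, Itgal and Itga11), 20% of the members beside 17.2% of all genes. None was past 2-fold higher, beside 7.48% of all genes. By sign 21 members were lower (58.2% of all genes) and 14 higher (40.1%), which turned to 15 lower and 20 higher with median scaling and to 28 lower and 7 higher after scaling without mitochondrially encoded genes. For N1WT/TercG2 over N1WT/TercWT the split by sign was 22 lower (61.1% of all genes) and 12 higher (36.6%), against 18 and 17 with median scaling and 27 and 7 without mitochondrially encoded genes.

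The Notch1 fold was set side by side in the 2 telomere settings, which share no library. The sign of the fold turned in 21 of 35 members (60% of the members and 44.2% of all genes). It was above 0 with short and below 0 with long telomeres in 15 members, 42.9% of the members and 21.9% of all genes. These 15 were matrix and basement membrane chains together with Itgax. They included Itgb5 (log2 folds 0.87 with short and -0.86 with long telomeres), Itgb4 (1.11 and -0.47), Itga5 (0.80 and -0.70), Itga8 (0.22 and -1.44) and Lamc3 (1.11 and -0.74). It was below 0 with short and above 0 with long telomeres in 6 members, all leukocyte chains: Itgb7 (-2.21 and 1.31), Itgal (-1.54 and 0.98), Itga4 (-0.46 and 1.62), Itgb2 (-0.66 and 0.59), Itgam and Itgad. Of all genes 22.3% had that pattern, and 17.1% of the members. The difference between the settings was not tested, since no spread is known, and the pair with short telomeres is the one whose Notch1 level ran against its labels. The platelet chains kept their sign. The fold with short minus that with long telomeres was 1.37 for Itga2b, 0.58 for Itgb3 and -0.17 for Itga2.

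**Figure D5:**
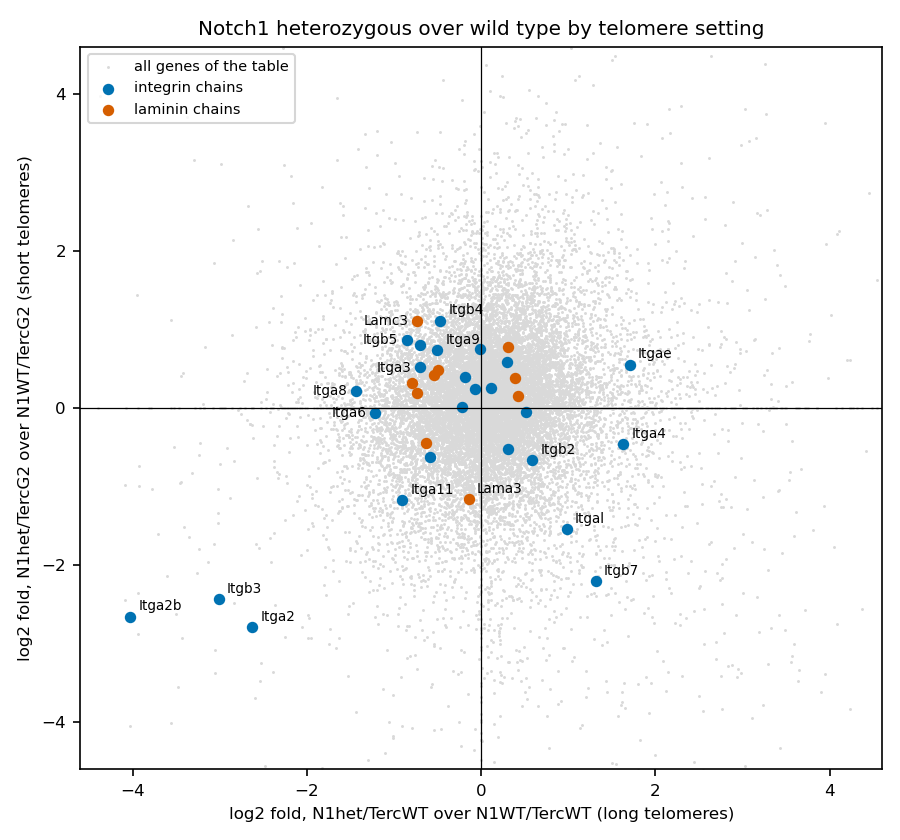
Log2 fold of Notch1 heterozygous over wild type valves with long telomeres (horizontal) and short telomeres (vertical) for the 25 integrin chains, the 10 laminin chains and all genes of the table, of which 88 and no member lie beyond the axes at 4.6. Itga2b, Itgb3 and Itga2 lie at the lower left, leukocyte chains such as Itgal and Itgb7 at the lower right, and most matrix chains at the upper left near the origin.

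Inside the cell, integrin tails are joined to actin by talins, kindlins, vinculin and the complex of ILK with PINCH and parvin. Of 24 such linkers and kinases 1 was called in the authors' deposited table: Parvb, which encodes beta-parvin, fell in N1het/TercWT valves (16.5 FPKM) relative to N1WT/TercWT valves (104 FPKM). It stood at 35.9 FPKM in N1het/TercG2 and 122 FPKM in N1WT/TercG2 valves, low in the same groups as the platelet chains, but without a call there. In N1het/TercWT relative to N1WT/TercWT valves 20 of the 24 were lower, 6 past 2-fold, with a median of -0.78 relative to all genes. The second-largest log2 fold there was that of Zyx, the focal adhesion protein zyxin, with 93.3 FPKM in N1het/TercWT, against 295 FPKM in N1WT/TercWT valves. Fermt3, the kindlin of blood cells, named after its values were seen, was lowest in N1het/TercG2 valves (8.22 FPKM), against 19.5 in N1WT/TercG2, 26.5 in N1het/TercWT and 45.5 FPKM in N1WT/TercWT valves.

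Of 18 measured ligands on a list of 19, Spp1 was called in the authors' deposited table. It encodes osteopontin, which binds alpha-v and other integrins, and rose in N1het/TercG2 valves (130.2 FPKM) relative to N1het/TercWT (8.35 FPKM) and N1WT/TercWT valves (8.18 FPKM). It stood at 8.63 FPKM in N1WT/TercG2 valves, without a call in N1het/TercG2 over N1WT/TercG2. In N1het/TercG2 relative to N1het/TercWT valves 17 of 18 ligands were higher (34.3% of all genes), 8 past 2-fold (4.71% of all genes). Their median was 0.90 relative to all genes. Ligand folds were not computed without mitochondrially encoded genes, a scaling that moves the median of all genes from -0.24 to -0.63 there. After Spp1 the largest log2 fold was that of Fga, a fibrinogen chain, at 1.92, where N1het/TercWT was near 0 FPKM. The fibrinogen chains Fgb and Fgg were also past 2-fold. They stood at 2.39 and 2.21 FPKM in N1het/TercG2 and were listed at 0 in N1het/TercWT valves. Vcam1 and Fn1 were named after their values were seen. Vcam1, the ligand of integrins with the alpha-4 and alpha-9 chains, stood at 264 FPKM in N1het/TercG2 and between 129 and 132 FPKM in the other groups. Fn1, which encodes fibronectin, stood at 192 FPKM in N1het/TercG2, 99.0 in N1WT/TercG2, 82.5 in N1het/TercWT and 146 FPKM in N1WT/TercWT valves. The receptor chains Itgav and Itgb1 had log2 folds in N1het/TercG2 over N1het/TercWT of 0.25 (-0.15 without mitochondrially encoded genes) and 0.50 (0.09 without them).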

How the data were processed

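RNA from aortic valve leaflets was sequenced in 15 libraries of 4 genotype groups. Per the labels' protocols, a 20-minute collagenase step at 37 °C preceded lysis, and cDNA was amplified by a linear method that does not keep the strand, so reads of overlapping or antisense genes cannot be told apart. The submitters' processing notes name FastQC, TopHat, SAMtools, Picard and mm9; what computed the expression values, and the test behind the calls, is not given in the sources used here. Per the file headers, the deposited values are FPKM, with 1 column for each group, and 5 further columns of 0 or 1 are read here as the authors' calls. In the file headers 2 call columns share a name. They were told apart by the FPKM values, since for each call column every called gene differed by 4-fold or more in only 1 pair of groups.

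Log2 folds used a pseudocount of 1 and no filter. No test was possible on group values, so the planned tests were replaced by the authors' calls and by counts past 2-fold beside all genes. Values in all groups were printed for members with at least 10 FPKM in a group or a call. Other members were given mainly by range. Genes of other lists were named where called or among the 2 largest log2 folds of the list, with exceptions stated. Called markers of cell types were given mainly by sum and count, and not all of them are named. The values of 1 member are not reported here, though it counts among the 35. The members and lists were chosen with earlier results of these data known. IDs of 16962 genes (93.9%) were matched to symbols. The counts were tested on simulated data. Computation used pandas 2.3.3 and numpy 2.4.6 under Python 3.11.15, with figures from matplotlib 3.10.9.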

Additional observations from a re-analysis of the deposited data

How the results depend on the processing

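No paired analysis was possible because the table holds 1 combined value per group, and for the same reason no library could be left out. The calls are the authors' own and did not depend on the settings. Of 175 member folds, 35 changed sign under at least 1 setting, all with an absolute log2 fold of at most 0.31 as reported. Counts past 2-fold that moved by over 1.5 times were as follows. For a pseudocount of 0.1, 2 were higher in N1het/TercG2 over N1WT/TercWT, 7 were higher in N1het/TercG2 over N1WT/TercG2, 8 were lower in N1het/TercG2 over N1het/TercWT and 6 were higher in N1het/TercWT over N1WT/TercWT. With median scaling, and also after scaling without mitochondrially encoded genes, 1 was higher in N1het/TercG2 over N1WT/TercWT. Scaling without mitochondrially encoded genes also gave 8 lower and 0 higher in N1het/TercG2 over N1het/TercWT and 11 lower in N1WT/TercG2 over N1WT/TercWT. With a limit of 1.5-fold there was 1 higher in N1het/TercG2 over N1WT/TercWT, 7 higher in N1het/TercG2 over N1WT/TercG2, 8 lower in N1het/TercG2 over N1het/TercWT, 10 lower in N1WT/TercG2 over N1WT/TercWT, and 14 lower and 5 higher in N1het/TercWT over N1WT/TercWT. With a limit of 4-fold, 3 were lower in N1het/TercG2 over N1WT/TercWT, 4 lower and 0 higher in N1het/TercG2 over N1WT/TercG2, 1 lower and 0 higher in N1het/TercG2 over N1het/TercWT, 1 lower and 1 higher in N1WT/TercG2 over N1WT/TercWT, and 3 lower and 0 higher in N1het/TercWT over N1WT/TercWT. Without genes under 1 FPKM in every group no such count moved that far. Members whose Notch1 fold turned sign numbered 20 to 21. The fold limits change the counts by construction, and the cause of the other shifts was not tested. Depth is unknown, so members under 1 FPKM cannot be ranked.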

Other observations

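Genes with similar names that encode no chain of an integrin dimer were also measured. Itgbl1, which encodes a secreted protein related to integrin beta chains, stood at 31.9 FPKM in N1het/TercG2, 18.2 in N1WT/TercG2, 11.8 in N1het/TercWT and 14.1 FPKM in N1WT/TercWT valves. Its highest value was in N1het/TercG2 valves, and it was not among the called genes. Itgb1bp1, a protein that binds the tail of the beta-1 chain, lay between 29.6 and 41.4 FPKM in the 4 groups. Markers of further cell types that leaflets can hold were low beside those of interstitial cells. Summed melanocyte markers (6 genes) were 38.2 FPKM in N1het/TercG2, 105 in N1WT/TercG2, 180.4 in N1het/TercWT and 157 FPKM in N1WT/TercWT valves. Mesothelial markers (6 genes) summed to 9.66, 25.4, 14.6 and 52.8 FPKM in the same order of groups. All 6 were lower in heterozygous valves in both telomere settings, without a call. Past 2-fold were 4 with short (10.8% of all genes) and 5 with long telomeres (7.53%). Their single values lay between 0.506 and 24.0 FPKM. Endothelial markers (10 genes) summed to 557 FPKM in N1het/TercG2, 458 in N1WT/TercG2, 296 in N1het/TercWT and 360 FPKM in N1WT/TercWT valves. Their lowest group was also that of Itga6 and, as reported but not after scaling without mitochondrially encoded genes, of 4 of the 5 abundant laminin chains. Their part in those values was not tested.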
